A study of Mus musculus with 23 samples.

Results

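The transcription factor p53, encoded by *Trp53*, and 9 genes that it is known to activate were followed in the livers of mice whose *Trp53* alleles can be deleted in hepatocytes. The genes are *Trp53*, *Cdkn1a*, *Ccng1*, *Bax*, *Bbc3*, *Phlda3*, *Trp53inp1*, *Mdm2*, *Zmat3* and *Sesn2*. They were chosen by name, as p53 and well-known targets of it, with earlier results of these data known, and were matched by symbol in the table of read counts. All 10 were found among the 27179 genes of the table.

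p53 is a DNA-binding protein that is held at a low level in unstressed cells, because its own target Mdm2 marks it for degradation. DNA damage, oncogene activity and nutrient stress slow this degradation, and p53 then activates genes that stop the cell cycle, start apoptosis, repair DNA, adjust metabolism and, through Mdm2, switch p53 off again. In the liver p53 limits the proliferation of hepatocytes after injury, and its loss is frequent in liver cancer. Many of its targets, *Cdkn1a* and *Sesn2* among them, can also be activated by other factors.

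Livers of 15 female mice in 3 groups, sampled away from visible tumors, were analysed by RNA sequencing. All carried the *Alb-Cre* transgene, which is active in the hepatocyte lineage, and floxed alleles of *Trp53* on both chromosomes (*Trp53* flx/flx). The 6 Ctrl mice had wild-type *Braf* and 1 floxed allele of *Icmt* (*Icmt* flx/+). The study calls the other groups ABpI F/+ and ABpI F/F, and they are named here Het and Hom, after the *Icmt* genotype in the sample labels. The 6 Het mice had 1 floxed allele of *Icmt* and in addition *Braf* CA/+, an allele that Cre switches to BRAF V600E. The 3 Hom mice had *Braf* CA/+ and floxed *Icmt* on both chromosomes (*Icmt* flx/flx). *Icmt* encodes an enzyme that methylates the carboxyl end of RAS and other prenylated proteins. The sample labels write the BRAF genotype of Het and of Hom mice as +/+, and the description of the study gives it as BrafCA/+, which is followed here.

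The strain label of 5 Ctrl mice names a B6 line with Icmt tm1Mbrg, Trp53tm1Brn and the Albcre transgene. The other Ctrl mouse, BG3, and all mice with mutant *Braf* share a longer label, which adds a cross to B6 mice with Trp53tm1Brn, Braftm1Mmcm and Icmt tm1Mbrg. Ages were not in the labels used. None of the groups had intact *Trp53*, so the comparisons are between livers with different *Braf* and *Icmt* alleles on a shared *Trp53* flx/flx background. In bulk tissue the counts of a gene come from hepatocytes, where Cre is active, and from all other cells. Deletion of *Trp53* by cell type was not measured here. Fewer cells of a type and less RNA per cell cannot be told apart in such data.

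The total count per mouse was between 24742910 and 32262649. Levels are given as CPM, the counts per 1e6 after scaling between libraries by edgeR's TMM method, and the scaling factors ranged from 0.846 in the Het mouse BG88 to 1.24 in the Hom mouse BG38. The tissue label was checked on 9 hepatocyte markers. All 9 had a mean of at least 1 CPM, with *Alb* the most abundant, and their summed level was between 99140 and 133053 CPM in Ctrl, between 174466 and 240230 CPM in Het, and 218927, 125361 and 186763 CPM in Hom mice, given in the order BG183, BG38, BG90 here and throughout.

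The engineered *Icmt* gene (Entrez 57295) was between 27.8 and 34.7 CPM in Ctrl, between 27.8 and 37.4 CPM in Het, and 15.7, 15.2 and 16.6 CPM in Hom mice. All 3 Hom mice lay below every other mouse, as their genotype label states. *Braf* (Entrez 109880) was between 14.1 and 26.5 CPM in Ctrl, between 24.0 and 29.2 CPM in Het, and 20.3, 21.9 and 22.0 CPM in Hom mice, where it lay within the Ctrl range and below all Het mice, and its level does not tell the mutant from the normal allele. The same limit holds for *Trp53*, since counts per gene do not tell a recombined from an intact transcript.

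The groups were compared in 3 pairs by edgeR's quasi-likelihood F-test, with all mice in 1 fit. Adjusted p-values are those of Benjamini and Hochberg over the whole table. Het vs Ctrl asks what the *Braf* allele changes, Hom vs Ctrl what it changes when *Icmt* is lost as well, and Het vs Hom what the loss of *Icmt* changes. The first and the second share the Ctrl mice, and all 3 share mice in pairs, so their results are not independent. The word called is used for genes with an adjusted p under 0.01 that were at least 2-fold higher or lower, and passed for those with such a p at any fold change. The background is the 12316 genes that averaged 1 CPM or more, a level that 9 of the 10 genes reached and *Phlda3* did not. Because the genes were chosen with earlier results known, the shares of the background describe the table and are no test of the 10 genes.

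For Het vs Ctrl, 5 of the 10 genes (*Trp53*, *Cdkn1a*, *Mdm2*, *Sesn2*, *Bax*) passed the adjusted p and were higher, where 18.3% of the background genes did so. Of these, 3 (*Trp53*, *Cdkn1a*, *Sesn2*) were also past 2-fold and so called, where 8.21% of the background genes were called higher. No gene of the 10 passed in the lower direction by edgeR, where 17.8% of the background genes passed and 9.39% were called. In that direction the count was 0 at an unadjusted p under 0.05 and 0 by DESeq2 as well. The median log2 fold change of the 9 genes in the background was 0.468, where that of all background genes was 0.0171. With the strain label as a term in the fit, *Cdkn1a* (adjusted p = 0.127) and *Bax* (adjusted p = 1) no longer passed, as is described below.

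For Hom vs Ctrl, 2 of the 10 genes (*Trp53*, *Cdkn1a*) passed the adjusted p and were higher, where 11.1% of the background genes did so, and 1 (*Cdkn1a*) was called, where 7.53% of the background genes were. None passed in the lower direction by edgeR, where 10.3% of the background genes passed and 5.04% were called. There the count at an unadjusted p under 0.05 was 1 (*Ccng1*), and DESeq2 passed 0. The median log2 fold change of the 9 genes in the background was 0.261, where that of all background genes was -0.000772. Neither gene passed with the strain label or with a clock score as a term, as is described below.

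For Het vs Hom, the direct comparison of the groups with mutant *Braf*, 0 of the 10 genes passed the adjusted p by edgeR in either direction. The background genes passed in 9.11% of cases higher and in 11.3% lower in Het, and 3.72% and 8.50% of them were called. At an unadjusted p under 0.05, 3 genes (*Trp53*, *Sesn2*, *Bax*) were higher and 0 lower in Het, and DESeq2 passed 0. The median log2 fold change of the 9 genes in the background was 0.294, where that of all background genes was 0.038. No test was made over the 10 genes as a list.

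**Figure D1:**
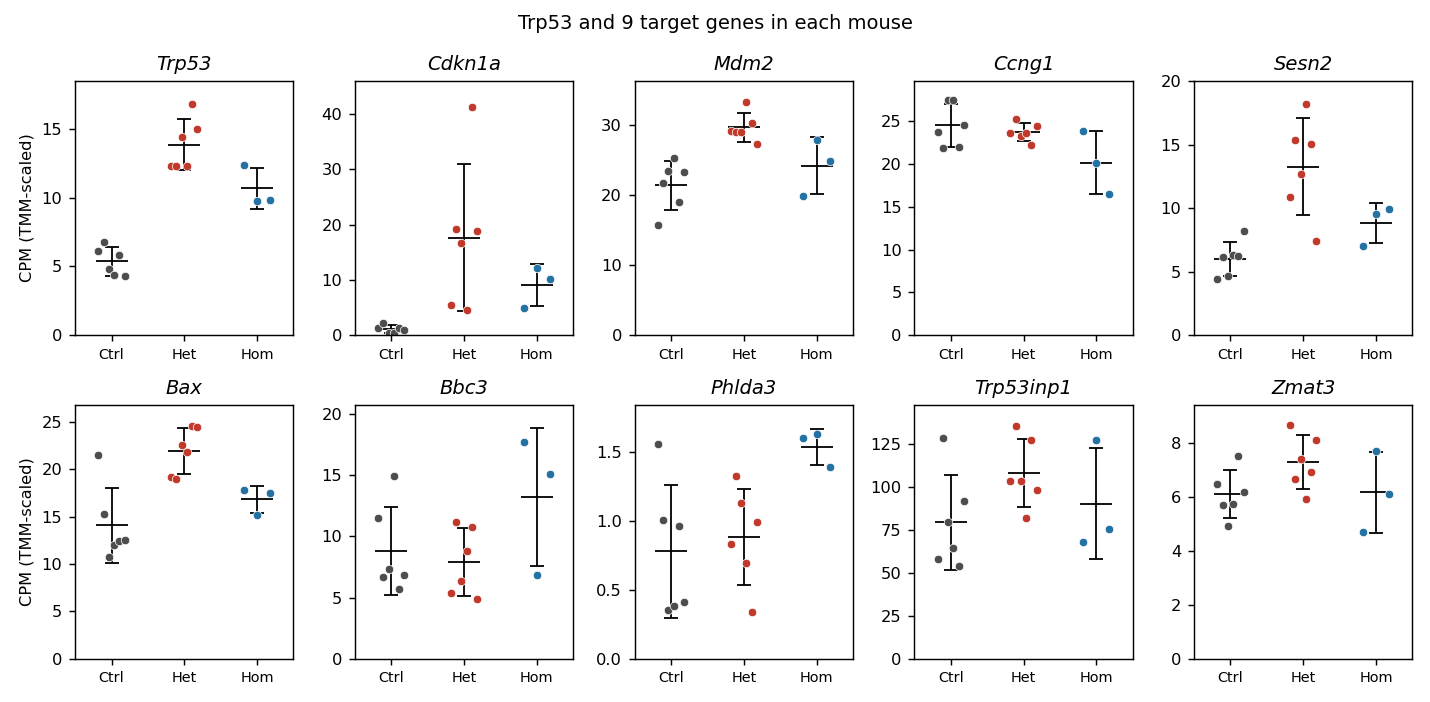
Level of each of the 10 genes in every mouse, in CPM scaled by TMM, for the 6 Ctrl, 6 Het and 3 Hom mice. Each point is a mouse, the horizontal bar is the mean and the error bars are the SD, and *Trp53* and *Cdkn1a* of all mice with mutant *Braf* lie above all Ctrl mice.

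*Trp53* (Entrez 22059, chr11:69580359-69591873 on the plus strand of GRCm38) is the gene of the factor itself. In the 6 Ctrl mice it was between 4.29 and 6.74 CPM with a median of 5.29, which rested on 115 to 187 counts per mouse. In the 6 Het mice it was between 12.3 and 16.8 CPM with a median of 13.3, and in the Hom mice it was 12.4, 9.78 and 9.82 CPM. Every mouse with mutant *Braf* lay above every Ctrl mouse, and the Hom mice lay at or below the lower edge of the Het mice, with BG183 inside their range. *Trp53* had a log2 fold change of 1.37 in Het vs Ctrl (standard error 0.144, adjusted p = 1.58e-07), a 2.59-fold rise seen in 6 of 6 mice. Its value in Hom vs Ctrl was 0.995 (standard error 0.168, adjusted p = 1.66e-04), a 1.99-fold rise seen in 3 of 3 mice and just under the 2-fold threshold. Without any one of the Ctrl mice BG3, malpa387 or malpa459 it was 1.04, 1.07 or 1.02, and without the Hom mouse BG38 or BG90 it was 1.05 in both fits, each past that threshold. The difference between Het and Hom mice was 0.38 on the log2 scale with a 95% interval from 0.02 to 0.74, and its adjusted p of 0.153 missed the threshold.

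These *Trp53* reads come from an allele that loses most of its coding exons in cells with Cre, and how many of them were from recombined transcripts was not analysed here. Counts of the neighbouring gene *Wrap53*, which is read from the other strand, were between 5.58 and 8.90 CPM in Ctrl, between 5.84 and 8.41 CPM in Het, and 5.38, 4.54 and 8.18 CPM in Hom mice. The groups overlapped for *Wrap53*, and it passed no comparison.

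Arrest of the cell cycle by p53 goes largely through p21, the product of *Cdkn1a*, which inhibits the cyclin-dependent kinases. *Cdkn1a* (Entrez 12575, chr17:29090976-29100727, plus strand) was between 0.424 and 2.16 CPM in Ctrl mice with a median of 1.10, on 12 to 58 counts. It was between 4.60 and 41.3 CPM in Het mice with a median of 17.7, on 119 to 1095 counts, and it was 4.89, 12.2 and 10.1 CPM in Hom mice. No mouse with mutant *Braf* overlapped the Ctrl mice, but the Het mice were far apart, with BG40 and BG175 low and BG55 high. Their highest value was 8.97 times their lowest, and their coefficient of variation was 75.2%, where that of *Ccng1* in the same mice was 4.44%.

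The log2 fold change of *Cdkn1a* in Het vs Ctrl was 4.02 (standard error 0.608, adjusted p = 2.21e-04), a 16.2-fold rise seen in 6 of 6 mice. In Hom vs Ctrl it was 3.06 (standard error 0.660, adjusted p = 0.00529), an 8.35-fold rise seen in 3 of 3 mice. Both calls were lost with the strain label as a term (adjusted p = 0.127 and 0.295), and the second was lost with the clock score (adjusted p = 0.333). The second also depended on single mice. Without one of the Ctrl mice BG3, malpa454, malpa458, malpa459 or malpa462 its adjusted p was 0.0119, 0.0133, 0.0133, 0.0115 or 0.0138, and without BG38 or BG90 it was 0.0339 or 0.0183. *Cdkn1a* log2 fold changes in these fits were between 2.79 and 3.13. Between Het and Hom mice the difference was 0.96 with a 95% interval from -0.45 to 2.37 (adjusted p = 0.418), so an equal level and a several-fold difference both lay within it.

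In GENCODE M21 an unclassified transcript on the opposite strand, AC167363.2, overlaps 273 bases of *Cdkn1a* exons. It was not in the count table, and the strand setting of the counting was not given, so how many reads of *Cdkn1a* it could have contributed is uncertain. The same holds for *Bax*, where 192 bases of exon are shared with Gm45808 on the same strand.

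*Ccng1* (Entrez 12450, chr11:40748552-40755311, minus strand) encodes cyclin G1, which brings a phosphatase to Mdm2. It was among the most even genes, between 21.9 and 27.5 CPM in Ctrl and between 22.2 and 25.3 CPM in Het mice, and it was 23.9, 20.1 and 16.5 CPM in Hom mice. The ranges of Ctrl and Het mice overlapped almost fully, and 2 of 3 Hom mice lay below both. The log2 fold change was -0.048 in Het vs Ctrl with a 95% interval from -0.26 to 0.17. For Hom vs Ctrl it was -0.29 with an interval from -0.55 to -0.02, and its adjusted p of 0.149 missed the threshold.

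Among the genes of apoptosis, *Bax* (Entrez 12028, chr7:45461697-45466898, minus strand) encodes a protein that opens the outer mitochondrial membrane. It was between 10.8 and 21.5 CPM in Ctrl mice with a median of 12.4, between 19.0 and 24.6 CPM in Het mice with a median of 22.3, and 17.8, 15.2 and 17.5 CPM in Hom mice. The Ctrl and Het groups overlapped through the Ctrl mouse BG3, which had the highest Ctrl value, and all Het mice lay above all Hom mice. *Bax* had a log2 fold change of 0.64 in Het vs Ctrl (standard error 0.142, adjusted p = 0.00139), a 1.56-fold rise with 4 of 6 mice above every Ctrl mouse and 6 of 6 above the Ctrl median, and the value fell to 0.028 (adjusted p = 1) with the strain label as a term. Between Hom and Ctrl mice it was 0.26 with a 95% interval from -0.10 to 0.62, and in Het vs Hom it was 0.38 with an interval from 0.02 to 0.75 (adjusted p = 0.154).

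*Bbc3* (Entrez 170770, chr7:16308393-16318205, plus strand) encodes Puma, which frees Bax and its relatives from their inhibitors. It was between 5.69 and 14.9 CPM in Ctrl, between 4.90 and 11.2 CPM in Het, and 17.7, 6.87 and 15.1 CPM in Hom mice. The groups overlapped, and BG183 and BG90 lay above all mice of the other groups. None of its comparisons passed, with log2 fold changes of -0.15 (95% interval from -0.78 to 0.47) in Het vs Ctrl and 0.59 (from -0.16 to 1.33) in Hom vs Ctrl. Between Het and Ctrl mice the sign of *Bbc3* changed to 0.063 in the fit without the Ctrl mouse malpa458.

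*Phlda3* (Entrez 27280, chr1:135766119-135769136, plus strand) encodes a small protein that keeps the kinase Akt from the membrane. It was the only one of the 10 below a mean of 1 CPM, with 0.353 to 1.56 CPM in Ctrl and 0.340 to 1.33 CPM in Het mice, and it was 1.60, 1.63 and 1.39 CPM in Hom mice. All 6 Het mice lay below all 3 Hom mice, and the Ctrl mouse BG3 overlapped the latter. Its log2 fold change of 0.99 in Hom vs Ctrl had a 95% interval from 0.07 to 1.91 and an adjusted p of 0.152, which missed the threshold.

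*Trp53inp1* (Entrez 60599, chr4:11156431-11174379, plus strand) encodes a stress protein that promotes cell death and autophagy. It was between 53.6 and 128 CPM in Ctrl, between 81.7 and 135 CPM in Het, and 68.0, 127 and 75.5 CPM in Hom mice. The ranges of the groups overlapped, although all 6 Het mice lay above the Ctrl median. *Trp53inp1* had a log2 fold change of 0.45 in Het vs Ctrl with a 95% interval from 0.01 to 0.88 (adjusted p = 0.136). In Hom vs Ctrl it was 0.19, with an interval from -0.34 to 0.71, and it was -0.14 in the fit without BG38.

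Of the genes that act back on p53, *Mdm2* (Entrez 17246, chr10:117688875-117710758, minus strand) encodes the ligase that marks p53 for degradation. It was between 15.8 and 25.4 CPM in Ctrl mice with a median of 22.5, between 27.3 and 33.4 CPM in Het mice with a median of 29.1, and 19.9, 27.9 and 24.9 CPM in Hom mice. All Het mice lay above all Ctrl mice, and the Hom mice spread over both ranges. The log2 fold change in Het vs Ctrl was 0.47 (standard error 0.116, adjusted p = 0.00379), a 1.38-fold rise seen in 6 of 6 mice, which is under the 2-fold threshold. Without malpa459, BG175 or BG40 its adjusted p was 0.0119, 0.0106 or 0.0109 and missed the threshold. For Hom vs Ctrl it was 0.17, with a 95% interval from -0.12 to 0.47.

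*Zmat3* (Entrez 22401, chr3:32334792-32366014, minus strand) encodes an RNA-binding zinc finger protein. It was between 4.91 and 7.52 CPM in Ctrl, between 5.92 and 8.67 CPM in Het, and 4.70, 7.70 and 6.11 CPM in Hom mice, and the ranges overlapped. The log2 fold changes were 0.26 (95% interval from -0.06 to 0.57) in Het vs Ctrl and 0.020 (from -0.37 to 0.41) in Hom vs Ctrl, and neither passed. The sign of the second changed to values between -0.174 and -0.0051 in the fits without malpa454, BG175, BG88 or BG38.

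In metabolism, *Sesn2* (Entrez 230784, chr4:132492032-132510501, minus strand) encodes sestrin 2, a leucine sensor that restrains mTORC1, and it is also a target of the stress factor ATF4. It was between 4.39 and 8.17 CPM in Ctrl mice with a median of 6.20, between 7.41 and 18.2 CPM in Het mice with a median of 13.9, and 7.05, 9.53 and 9.97 CPM in Hom mice. Only BG88 among the Het mice fell within the Ctrl range, and the Hom mice bridged both groups. *Sesn2* had a log2 fold change of 1.15 in Het vs Ctrl (standard error 0.191, adjusted p = 7.06e-05), a 2.21-fold rise with 5 of 6 mice above every Ctrl mouse. Between Hom and Ctrl mice it was 0.56 with a 95% interval from 0.09 to 1.04 (adjusted p = 0.102). Between Het and Hom mice the difference was 0.58 with an interval from 0.10 to 1.07, and its adjusted p of 0.0936 missed the threshold.

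**Figure D2:**
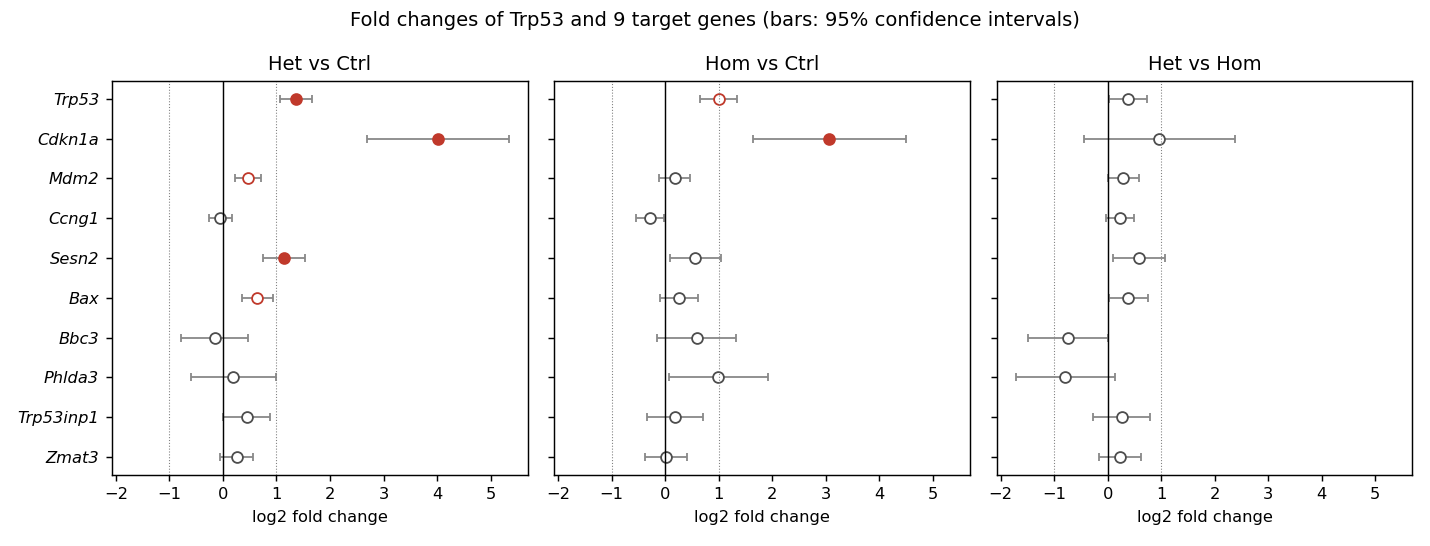
Log2 fold change of each of the 10 genes in the 3 comparisons, with 95% intervals from edgeR as bars and dotted lines at a 2-fold change in either direction. Filled red points were called (adjusted p under 0.01 and at least 2-fold), open red points passed the adjusted p but not 2-fold, and the fold change of *Cdkn1a* of 4.02 in Het vs Ctrl is the farthest from 0.

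The genes did not share 1 high and 1 low mouse. Among the Het mice BG55 was highest for *Trp53*, *Cdkn1a* and *Bax*, and BG30 was highest for *Ccng1*, *Bbc3*, *Phlda3* and *Trp53inp1*. Among the Hom mice BG38 was highest for 5 genes (*Cdkn1a*, *Mdm2*, *Phlda3*, *Trp53inp1*, *Zmat3*), and BG183 was highest for 4 (*Trp53*, *Ccng1*, *Bax*, *Bbc3*) and lowest for 5 (*Cdkn1a*, *Mdm2*, *Sesn2*, *Trp53inp1*, *Zmat3*).

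Levels of different genes were compared per length, as RPKM (CPM per kilobase of exon in GENCODE M21), with means of neighbours counted as apart when they differed by more than the sum of their SDs. For *Trp53* the exon length of the intact gene was used. Its RPKM and its place among the genes are therefore uncertain in all 3 groups, since recombined transcripts are shorter. In Ctrl livers the order of the means ran from *Trp53inp1* (12.2 ± 4.30, SD, n = 6) and *Bax* (8.94 ± 2.5) over *Ccng1* (6.99 ± 0.711), *Mdm2* (4.22 ± 0.686) and *Bbc3* (4.14 ± 1.69) to *Sesn2* (1.72 ± 0.391) and *Trp53* (1.32 ± 0.253). At the end were *Zmat3* (0.533 ± 0.0772), *Phlda3* (0.500 ± 0.310) and *Cdkn1a* (0.307 ± 0.184). The steps beyond the spread were those from *Ccng1* to *Mdm2*, from *Bbc3* to *Sesn2* and from *Trp53* to *Zmat3*, and the other neighbours did not differ beyond it.

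In Het livers *Cdkn1a* stood in place 5 instead of 10, at 4.97 ± 3.74 RPKM (SD, n = 6), after *Trp53inp1* (16.7 ± 3.05), *Bax* (13.9 ± 1.56), *Ccng1* (6.76 ± 0.300) and *Mdm2* (5.84 ± 0.406). It was followed by *Sesn2* (3.82 ± 1.09), *Bbc3* (3.73 ± 1.30), *Trp53* (3.42 ± 0.467), *Zmat3* (0.636 ± 0.0875) and *Phlda3* (0.569 ± 0.223). Because of its spread, *Cdkn1a* was not apart from *Mdm2* above it or *Sesn2* below it. The steps from *Bax* to *Ccng1*, from *Ccng1* to *Mdm2* and from *Trp53* to *Zmat3* were beyond the spread.

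In Hom livers the means were 13.9 ± 4.95 RPKM (SD, n = 3) for *Trp53inp1*, 10.7 ± 0.900 for *Bax*, 6.23 ± 2.66 for *Bbc3*, 5.74 ± 1.05 for *Ccng1* and 4.76 ± 0.791 for *Mdm2*. *Trp53* (2.64 ± 0.371), *Cdkn1a* (2.55 ± 1.06) and *Sesn2* (2.55 ± 0.453) followed as neighbours within their spread, before *Phlda3* (0.989 ± 0.0834) and *Zmat3* (0.540 ± 0.131). Here the steps from *Bax* to *Bbc3*, *Mdm2* to *Trp53*, *Sesn2* to *Phlda3* and *Phlda3* to *Zmat3* were beyond the spread.

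The strain label moves almost with the groups, because BG3 is the only Ctrl mouse with the label of the mice with mutant *Braf*. With the label as a term in the fit, the comparisons with Ctrl rest on BG3 alone as the control. *Cdkn1a* was 1.31 CPM in BG3, and its log2 fold changes were then 3.74 (adjusted p = 0.127) in Het vs Ctrl and 2.79 (adjusted p = 0.295) in Hom vs Ctrl, so that both calls were lost while the fold changes stayed large. *Trp53* remained called in Het vs Ctrl at 1.17 (adjusted p = 0.00865), as did *Sesn2* at 1.59 (adjusted p = 0.00975). *Trp53* in Hom vs Ctrl was 0.793 with an adjusted p of 0.0964. *Bax*, at 21.5 CPM in BG3, had a log2 fold change of 0.028 in Het vs Ctrl (adjusted p = 1), where it was 0.64 without the term, and *Mdm2*, at 15.8 CPM in BG3, had one of 0.91 (adjusted p = 0.00456). For *Bax* the part of strain and of the *Braf* allele cannot be told apart on this 1 mouse.

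The state of the circadian clock also differed between the mice. It was scored as the mean standardized level of 4 genes high together with *Arntl* minus that of 5 genes high together with *Nr1d1*. The score was between -1.39 and -0.726 in 5 Ctrl mice and 2.01 in the Ctrl mouse malpa387, between -0.968 and 0.0992 in Het mice, and 0.830, 1.69 and 3.21 in Hom mice. Of the first 4 genes 1 passed higher in Het vs Ctrl (*Cry1*), and in Het vs Hom 2 (*Npas2*, *Clock*) passed lower. Of the other 5 genes 2 (*Nr1d2*, *Tef*) passed lower in Hom vs Ctrl, and 1 (*Tef*) passed higher in Het vs Hom. *Nr1d1* itself ran against the score, at 0.537 in Hom vs Ctrl (adjusted p = 0.472) and -1.319 in Het vs Hom (adjusted p = 0.0273), where DESeq2 passed it as lower, and *Cry1* did so in Het vs Hom at 1.009 (adjusted p = 0.0119). With the score as a term in the fit, *Cdkn1a* in Hom vs Ctrl was 1.81 (adjusted p = 0.333) and no longer called, and *Trp53* was 0.815 (adjusted p = 0.0365). In Het vs Ctrl *Trp53*, *Cdkn1a* and *Sesn2* kept their calls with this term.

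The wider p53 response was read on 60 known target genes in 6 lists by role, of which 9 are the targets above and 51 are others. For Het vs Ctrl, 11 of the 60 passed the adjusted p and were higher and 9 were lower, and 6 and 5 of these were called. In Hom vs Ctrl, 11 were higher and 5 lower, with 9 and 4 called. Between Het and Hom mice, 6 were higher and 7 lower, with 3 and 5 called. Of the 60 targets 49 reached the mean of 1 CPM that defines the background, and only these are set beside it. In Het vs Ctrl, 20.4% of the 49 passed higher and 18.4% lower, where 18.3% and 17.8% of the background genes did so, and 10.2% were called in each direction (background 8.21% and 9.39%). These shares in Hom vs Ctrl were 14.3% higher and 10.2% lower (background 11.1% and 10.3%), and 10.2% and 8.16% were called (background 7.53% and 5.04%). For Het vs Hom they were 12.2% higher and 10.2% lower (background 9.11% and 11.3%), and 6.12% were called in each direction (background 3.72% and 8.50%). The median log2 fold changes of the 49 were 0.207, 0.020 and 0.272 in these comparisons, where those of the background genes were 0.0171, -0.000772 and 0.038. Without the 8 genes followed above, the medians of the other 41 were 0.096, -0.046 and 0.272. Targets passed in both directions, as did background genes, and no test was made over the 60 genes as a list.

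The total number of targets called in Hom vs Ctrl was 13, and in other fits, where the genes called need not be the same, it was 4 without BG38, 8 with the strain label and 6 with the clock score as a term. For Het vs Hom the total was 8, and it was 3 without BG38, 5 without the Het mouse BG31 and 5 with the clock score. For Het vs Ctrl it was 11, and 7 with the strain label.

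The list of cell cycle arrest holds 10 genes. Between Het and Ctrl mice 3 passed higher (*Cdkn1a*, *Btg2*, *Plk3*) and 1 lower (*Cdc14b*), with a median log2 fold change of 0.688. For Hom vs Ctrl 3 passed higher (*Cdkn1a*, *Btg2*, *Plk2*), with a median of 0.506, and in the lower direction edgeR passed 0, where 3 were lower at an unadjusted p under 0.05 and 1 by DESeq2. In Het vs Hom 2 passed higher (*Btg2*, *Plk3*) and 1 lower (*Plk2*), with a median of 0.450. With the strain label as a term, of these genes only *Btg2* still passed against Ctrl, in both comparisons. *Plk3* in Het vs Ctrl went from 1.33 to 1.29, and *Plk2* in Hom vs Ctrl from 0.831 to 0.898. *Cdc14b* in Het vs Ctrl went from -0.716 to -0.0176. Its level was 24.4 CPM in BG3 and between 20.4 and 26.8 CPM in Het mice.

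*Btg2* encodes an antiproliferative protein that acts on mRNA decay and transcription. It was between 5.50 and 8.40 CPM in Ctrl mice with a median of 6.35, between 128 and 324 CPM in Het mice with a median of 141, and 29.5, 42.3 and 73.4 CPM in Hom mice. The groups did not overlap, and the Hom mice lay between the others. Its log2 fold change was 4.79 in Het vs Ctrl (standard error 0.297, adjusted p = 6.67e-09, higher in 6 of 6 mice) and 2.88 in Hom vs Ctrl (standard error 0.304, adjusted p = 5.97e-06, 3 of 3 mice). The direct comparison of Het with Hom gave 1.91 (standard error 0.338, adjusted p = 8.92e-04), a 3.75-fold higher level in 6 of 6 mice.

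*Plk3*, which encodes a stress-responsive kinase, was between 28.8 and 59.2 CPM in Ctrl mice with a median of 45.8, between 59.8 and 174 CPM in Het mice with a median of 105, and 22.5, 17.9 and 7.50 CPM in Hom mice. The 3 groups did not overlap, and Hom mice lay below Ctrl here. The log2 fold change was 1.33 in Het vs Ctrl (standard error 0.317, adjusted p = 0.00597, 6 of 6 mice) and 2.75 in Het vs Hom (standard error 0.443, adjusted p = 6.35e-04, 6 of 6 mice). Between Hom and Ctrl mice it was -1.43, lower in 3 of 3 mice, with an adjusted p of 0.0277 that missed the threshold.

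Of the 14 genes of apoptosis 1 passed higher (*Bax*) and 2 lower (*Fas*, *Perp*) in Het vs Ctrl, none of them by 2-fold, and the median log2 fold change was 0.201. The genes called higher in Hom vs Ctrl were 2. *Tnfrsf10b*, a gene of a death receptor, was 0.979, 2.30 and 1.71 CPM in Hom mice and at most 0.715 CPM in Ctrl mice, with a log2 fold change of 2.27 (standard error 0.450, adjusted p = 8.23e-04, 3 of 3 mice). *Apaf1*, whose product forms the apoptosome, was 5.48, 7.98 and 5.82 CPM in Hom mice and at most 3.70 CPM in Ctrl mice, with a log2 fold change of 1.03 (standard error 0.240, adjusted p = 0.00358, 3 of 3 mice). Neither gene overlapped between these groups. For Het vs Hom 2 passed lower (*Pmaip1*, *Apaf1*), of which *Pmaip1* was called at -1.76 (adjusted p = 0.00749, 5 of 6 mice below all Hom mice). The medians of the list in these comparisons were 0.175 in both. *Fas* in Het vs Ctrl and *Tnfrsf10b* in Hom vs Ctrl still passed with the strain label as a term, and *Bax*, *Perp* and *Apaf1* did not. With this term *Bax* in Het vs Ctrl went from 0.64 to 0.028. The fold changes of the other 2 did not shrink. *Perp* went from -0.487 to -0.747 in Het vs Ctrl, and *Apaf1* from 1.03 to 1.68 in Hom vs Ctrl.

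Of the 7 genes that act back on p53, 2 passed higher (*Mdm2*, *Rchy1*) and 1 lower (*Pml*) in Het vs Ctrl, with a median of 0.256. For Hom vs Ctrl 0 passed by edgeR, where 3 had an unadjusted p under 0.05 and 3 passed by DESeq2, with a median of 0.079. Between Het and Hom mice 1 was called lower, *Pml*, which organizes nuclear bodies, at -1.03 (adjusted p = 7.76e-05, 6 of 6 mice below), with a list median of 0.257. Of the 6 genes of DNA repair and nucleotide supply, 1 passed higher in Het vs Ctrl (*Ercc5*), 1 in Hom vs Ctrl (*Polk*) and 0 in Het vs Hom by edgeR, where 1 had an unadjusted p under 0.05 and 1 passed by DESeq2. Their medians were 0.320, 0.056 and 0.029. Of these lists *Mdm2* still passed in Het vs Ctrl with the strain label as a term. In that comparison *Rchy1* went from 0.511 to 0.143 and *Pml* from -0.48 to -0.123. *Ercc5* and *Polk* no longer passed, although their fold changes did not shrink. In Het vs Ctrl *Ercc5* went from 0.425 to 0.439, and in Hom vs Ctrl *Polk* went from 0.736 to 1.08. *Rps27l*, which acts back on p53, went from -0.649 to -1.12 in Hom vs Ctrl with this term.

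Of the 12 genes of metabolism and redox, 3 passed higher (*Sesn2*, *Prkab1*, *Fdxr*) and 4 lower (*Gpx1*, *Ephx1*, *Pank1*, *Aldh4a1*) in Het vs Ctrl, with a median of 0.091. Between Hom and Ctrl mice 1 passed higher (*Prkab1*) and the same 4 passed lower, with a median of -0.517. In Het vs Hom 3 passed higher (*Lpin1*, *Fdxr*, *Tigar*) and 0 lower by edgeR, by DESeq2 and at an unadjusted p under 0.05, with a median of 0.499. With the strain label as a term all of these but *Fdxr* still passed in Het vs Ctrl, and all but *Aldh4a1* in Hom vs Ctrl. *Fdxr* went from 0.839 to 0.621 and *Aldh4a1* from -1.01 to -1.18 in these comparisons.

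*Prkab1*, which encodes a subunit of the energy sensor AMPK, was between 24.5 and 28.8 CPM in Ctrl, between 49.5 and 65.9 CPM in Het, and 50.8, 59.5 and 52.1 CPM in Hom mice. All mice with mutant *Braf* lay above all Ctrl mice, and Het and Hom overlapped. Its log2 fold changes were 1.15 (standard error 0.097, adjusted p = 7.35e-09, 6 of 6 mice) in Het vs Ctrl and 1.01 (standard error 0.114, adjusted p = 1.26e-06, 3 of 3 mice) in Hom vs Ctrl.

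*Gpx1*, which encodes a glutathione peroxidase, was between 1383 and 2526 CPM in Ctrl, between 259 and 379 CPM in Het, and 423, 236 and 262 CPM in Hom mice. All mice with mutant *Braf* lay below all Ctrl mice. The log2 fold changes were -2.59 (standard error 0.181, adjusted p = 4.65e-10, 6 of 6 mice) and -2.61 (standard error 0.240, adjusted p = 7.44e-08, 3 of 3 mice). *Ephx1*, an epoxide hydrolase gene, was between 189 and 272 CPM in Ctrl and at most 91.2 CPM in the others, with log2 fold changes of -1.59 (adjusted p = 1.43e-07) and -1.88 (adjusted p = 1.70e-06). *Pank1*, a gene of coenzyme A synthesis, was between 216 and 266 CPM in Ctrl and at most 150 CPM in the others, with log2 fold changes of -1.13 (adjusted p = 3.88e-06) and -1.56 (adjusted p = 4.42e-06). For both genes 6 of 6 Het and 3 of 3 Hom mice lay below all Ctrl mice.

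*Lpin1*, which encodes a phosphatidate phosphatase of lipid synthesis, was between 107 and 533 CPM in Ctrl mice with a median of 224, between 517 and 1221 CPM in Het mice with a median of 626, and 68.9, 79.7 and 81.0 CPM in Hom mice. Het and Hom lay on opposite sides of Ctrl, with some overlap between Ctrl and Het. Only the direct comparison of Het with Hom passed, with a log2 fold change of 3.20 (standard error 0.520, adjusted p = 6.23e-04, higher in 6 of 6 Het mice). Against Ctrl the values were 1.35 (adjusted p = 0.0122) and -1.85 (adjusted p = 0.0146).

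Of the 11 other targets 1 passed higher (*Trp53cor1*) and 1 lower (*Cyfip2*) in Het vs Ctrl, with a median of 0.054, or 0 with genes at their bound. In Hom vs Ctrl 4 passed higher (*Tap1*, *Ak1*, *Zfp365*, *Trp53cor1*) and 1 lower (*Slc19a2*), with a median of 1.09, or 0.762 with genes at their bound. Of these, *Zfp365* had 0 or 1 read per Ctrl mouse and 3, 9 and 9 reads in Hom mice. *Ak1* had 4 to 10 reads per Ctrl mouse and 16, 56 and 24 in Hom mice. For Het vs Hom 1 passed higher (*Slc19a2*) and 3 lower (*Ak1*, *Cyfip2*, *Tap1*), with a median of -0.461. Against Ctrl only *Tap1* in Hom vs Ctrl still passed with the strain label as a term. With this term *Ak1* went from 2.38 to 2.55 and *Slc19a2* from -0.995 to -0.983 in Hom vs Ctrl. *Cyfip2* in Het vs Ctrl went from -1.53 to -1.06. The long noncoding RNA *Trp53cor1*, which lies beside *Cdkn1a* and represses genes with p53, had no read in any of the 6 Ctrl mice. It had 0 to 13 reads in Het mice, 5 of 6 of them above 0, and 10, 4 and 3 reads in Hom mice. At such depth it was detected with mutant *Braf* and not in Ctrl, and no fold change is given.

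*Cyfip2*, which encodes a subunit of an actin regulator, was between 1.52 and 2.91 CPM in Ctrl, between 0.387 and 1.05 CPM in Het, and 2.48, 7.89 and 3.04 CPM in Hom mice. All Het mice lay below every Ctrl and Hom mouse, with log2 fold changes of -1.53 in Het vs Ctrl (adjusted p = 6.34e-04) and -2.62 in Het vs Hom (adjusted p = 2.28e-05). *Tap1*, a peptide transporter gene of antigen presentation that interferon also induces, was at most 38.6 CPM in Ctrl and Het mice and 52.1, 78.0 and 61.9 CPM in Hom mice. Its log2 fold change was 1.12 in Hom vs Ctrl (standard error 0.143, adjusted p = 6.25e-06, 3 of 3 mice) and -1.01 in Het vs Hom (adjusted p = 4.13e-05, 6 of 6 mice below).

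**Figure D3:**
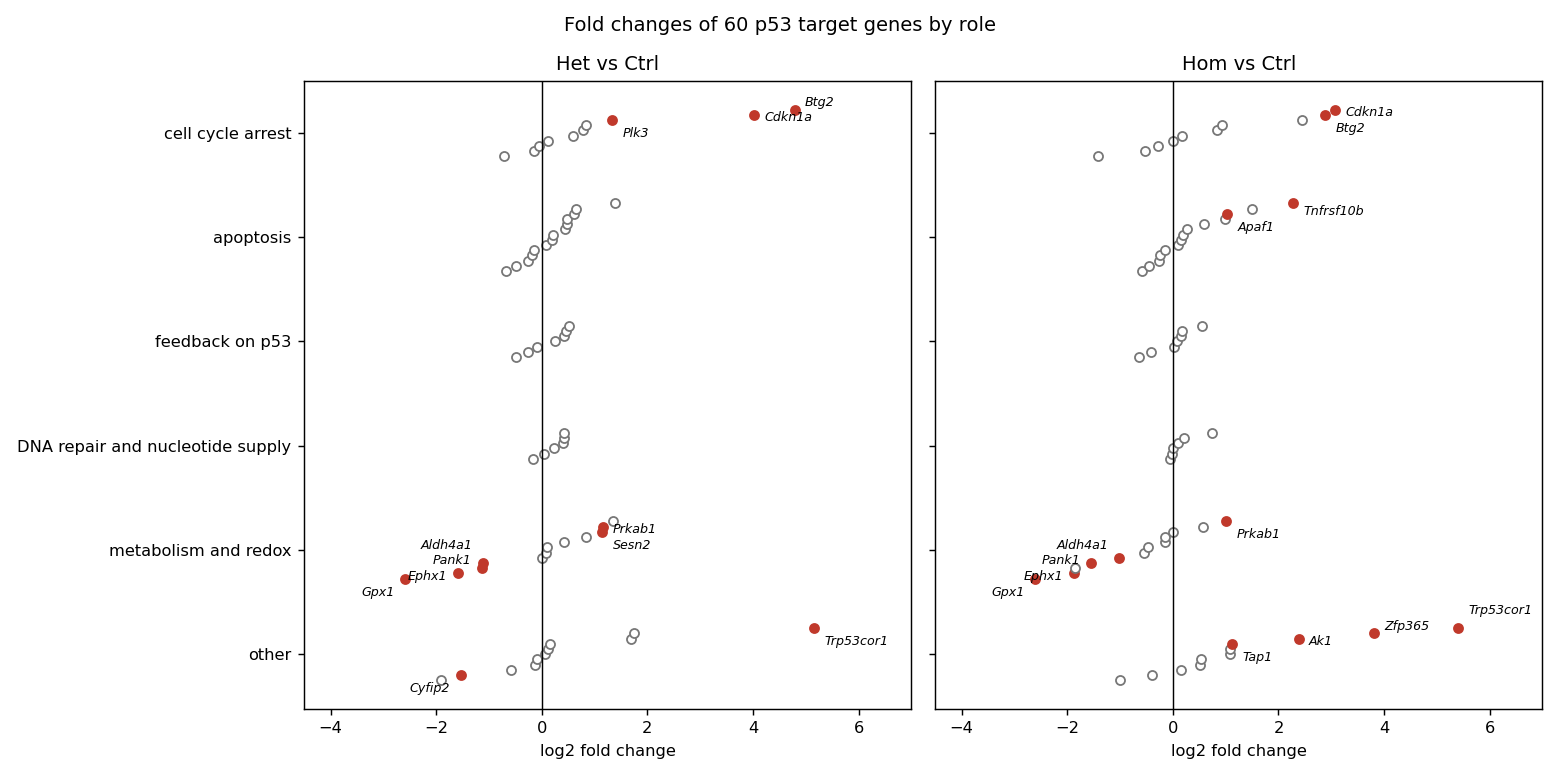
Log2 fold change of the 60 p53 target genes by role, in Het vs Ctrl and in Hom vs Ctrl. Each point is a gene, filled red points were called (adjusted p under 0.01 and at least 2-fold), the values of *Trp53cor1* depend on the prior count because Ctrl had no read, and both directions occur in metabolism and redox.

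Promoter sequences were available in RefSeq for 8 of the 10 genes, as 11 promoters, and *Trp53inp1* and *Zmat3* had none in the table. The window ran from 250 bases before to 50 bases after each start. The p53 consensus, which p53 reads as a pair of adjoining 10-base elements, was searched on both strands. A 10-base element without mismatch lay in 5 of the 11 promoters (45.5%), in 16 of 65 promoters of the p53 target lists (24.6%) and in 8.36% of all 32851 promoters. The whole 20-base site with at most 2 mismatches lay in 2 of 11 (18.2%), 5 of 65 (7.69%) and 0.798% of them.

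The 2 genes with a whole site, *Cdkn1a* and *Ccng1*, differ in their response in these livers, and their sequences are shown for this reason, with those of the other promoters that hold a 10-base element. The sequences are from RefSeq on GRCm38.p6 and are written on the strand of the gene, with the matching elements in capitals. They lie at chr11:69580259-69580354 (*Trp53*, plus strand), chr17:29090881-29090974 (*Cdkn1a*, plus), chr11:40755407-40755506 (*Ccng1*, minus), chr7:45467025-45467124 (*Bax*, minus) and chr10:117710870-117710969 (*Mdm2*, minus).
*Trp53*: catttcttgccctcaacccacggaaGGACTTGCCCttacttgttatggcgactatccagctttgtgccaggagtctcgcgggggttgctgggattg
*Cdkn1a*: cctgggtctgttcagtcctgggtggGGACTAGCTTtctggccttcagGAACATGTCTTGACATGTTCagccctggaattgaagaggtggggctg
*Ccng1*: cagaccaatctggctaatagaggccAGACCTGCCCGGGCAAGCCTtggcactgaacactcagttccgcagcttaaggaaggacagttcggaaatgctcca
*Bax*: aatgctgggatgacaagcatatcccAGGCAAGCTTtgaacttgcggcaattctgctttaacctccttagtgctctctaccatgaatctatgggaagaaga
*Mdm2*: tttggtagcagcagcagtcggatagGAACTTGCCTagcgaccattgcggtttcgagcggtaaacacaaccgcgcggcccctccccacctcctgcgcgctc

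In *Cdkn1a* the whole site, with 1 mismatch, starts at position -51 from the RefSeq start of this promoter, and a second 10-base element lies at -73. In *Ccng1* the whole site, also with 1 mismatch, starts at -195 from its RefSeq start. These starts differ from the GENCODE gene starts given above. A match describes the letters of this window only, and binding of p53 in these livers was not measured here.

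The relatives and regulators of p53 were read on a list of 21 genes that includes *Trp53*. For Het vs Ctrl 4 passed higher (*Trp53*, *Trp63*, *Atr*, *Kmt5a*) and 4 lower (*Chek1*, *Chek2*, *Hipk2*, *Trp53bp1*), with a median log2 fold change of 0.174. For Hom vs Ctrl 2 passed higher (*Trp53*, *Cdkn2a*), with a median of 0.074, and in the lower direction edgeR and DESeq2 passed 0, where 1 was lower at an unadjusted p under 0.05. Between Het and Hom mice 1 passed higher (*Kmt5a*) and 3 lower (*Chek1*, *Chek2*, *Trp53bp1*), with a median of -0.058. *Trp53* and *Chek2* still passed in Het vs Ctrl with the strain label as a term, and *Trp53* and *Cdkn2a* no longer passed in Hom vs Ctrl. Genes that no longer passed in Het vs Ctrl included *Kmt5a* (0.821 to 0.709) and *Chek1* (-2.19 to -1.88), the latter on 2 to 7 reads per Het mouse. Other genes moved up with the term. *Ep300* went from 0.33 to 1.32 in Het vs Ctrl and from 0.201 to 1.19 in Hom vs Ctrl. *Ppp1r13b* went from 0.529 to 0.999 in Hom vs Ctrl. These values rest on BG3 alone as the control.

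*Trp63* and *Trp73* encode the relatives of p53, which bind the same DNA element. *Trp63* had no read in 5 of 6 Ctrl mice and 0.124 CPM in malpa459, it was between 0 and 1.89 CPM in Het mice with 5 of 6 above all Ctrl mice, and it was 0.0653, 0 and 0 CPM in Hom mice. Its adjusted p in Het vs Ctrl was 0.00361, on 0 to 50 reads per mouse. *Trp73* had no read in any of the 15 mice.

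*Chek2* encodes a kinase that activates p53 after DNA damage. It was between 1.60 and 2.83 CPM in Ctrl, between 0.226 and 0.767 CPM in Het, and 1.34, 1.44 and 1.36 CPM in Hom mice. The Het mice lay below all others. The log2 fold change was -2.17 (standard error 0.311, adjusted p = 1.17e-05, 6 of 6 mice) in Het vs Ctrl and -1.47 in Het vs Hom (adjusted p = 0.00549, 6 of 6 mice). *Hipk2*, a kinase gene that also acts on p53, was between 4.55 and 13.6 CPM in Ctrl and between 4.31 and 5.46 CPM in Het mice, overlapping through BG3, with a log2 fold change of -1.05 (adjusted p = 2.51e-04, 3 of 6 mice below all Ctrl mice). BG3 is the Ctrl mouse with the strain label of the Het mice, and with this label as a term *Hipk2* was 0.0659 (adjusted p = 1).

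*Cdkn2a*, whose Arf product blocks Mdm2, was 0.131, 2.46 and 1.5 CPM in Hom mice and at most 0.369 CPM in Ctrl mice. BG183 lay within the Ctrl range and the others above it. Its log2 fold change was 3.52 in Hom vs Ctrl (standard error 0.809, adjusted p = 0.00368, 2 of 3 mice), on 0 to 9 reads per Ctrl mouse, and 1.88 (adjusted p = 0.533) with the strain label as a term. *Mdm4*, which encodes the partner of Mdm2, was between 8.82 and 30.2 CPM in Ctrl, between 11.0 and 20.7 CPM in Het, and 21.7, 27.9 and 24.4 CPM in Hom mice. It passed no comparison in the main fit, although all Het mice lay below all Hom mice. The Ctrl value of 8.82 CPM was that of BG3. With the strain label as a term, which leaves BG3 as the control, *Mdm4* went from 0.21 to 1.48 in Hom vs Ctrl. In Het vs Ctrl it went from -0.358 to 0.915.

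p21 represses genes of the cell cycle through the DREAM complex, and 15 such genes were read beside *Cdkn1a*. Between Het and Ctrl mice 10 of 15 passed lower, 9 of them called, and 0 passed higher by edgeR, by DESeq2 and at an unadjusted p under 0.05, with a median log2 fold change of -1.76. Between Hom and Ctrl mice 0 of 15 passed by edgeR or DESeq2, where 2 were higher at an unadjusted p under 0.05, with a median of 0.198. In Het vs Hom 10 were called lower and 0 passed higher by the same measures, with a median of -1.85. Of the 10 that passed lower in Het vs Ctrl, *Top2a*, *Ccnb1*, *Cdc20* and *E2f1* still did so with the strain label as a term. The others no longer passed, while their fold changes stayed about as large. *Ccnb2* went from -1.82 to -2.49, *Cdk1* from -1.76 to -1.96 and *Ccna2* from -1.26 to -1.49. *Mki67* went from -1.85 to -1.59, *Aurkb* from -3.64 to -3.09 and *Mcm5* from -1.47 to -1.37.

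The summed level of the 15 genes, of which *Mki67* was the most abundant, was between 24.5 and 42.9 CPM in Ctrl, between 9.81 and 13.7 CPM in Het, and 27.6, 44.7 and 43.7 CPM in Hom mice. Het mice lay below all others and Hom mice overlapped Ctrl, while *Cdkn1a* was above Ctrl in both. The summed markers of stellate cells, macrophages and lymphocytes, given below, were also lower in all Het mice than in all others. The part of such cells in the level of the cell cycle genes was not tested. The topoisomerase gene *Top2a* was between 2.21 and 5.38 CPM in Ctrl, between 0.147 and 0.282 CPM in Het, and 2.58, 4.85 and 5.11 CPM in Hom mice. Its log2 fold change was -4.02 in Het vs Ctrl (standard error 0.313, adjusted p = 2.16e-09) and -4.27 in Het vs Hom (standard error 0.339, adjusted p = 1.25e-07), with 6 of 6 mice below. Both values rest on 4 to 8 reads per Het mouse. *Cdc20*, which triggers the exit from mitosis, had values of -3.26 (adjusted p = 9.84e-07) and -3.35 (adjusted p = 1.42e-05) on 1 to 8 reads per Het mouse, and *Mki67* of -1.85 (adjusted p = 7.21e-05) and -2.32 (adjusted p = 7.77e-05), again with 6 of 6 mice below. *Aurkb*, a gene of a mitotic kinase, had -4.13 (adjusted p = 2.38e-04) in Het vs Hom, on 0 to 5 reads per Het mouse.

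Since *Sesn2* is also a target of ATF4, 8 genes of the ATF4 response were read beside it. In Het vs Ctrl 5 of 8 passed higher (*Asns*, *Psat1*, *Trib3*, *Nupr1*, *Atf4*), with a median log2 fold change of 1.31. In Hom vs Ctrl 4 passed higher (*Asns*, *Psat1*, *Trib3*, *Nupr1*), with a median of 1.48. For Het vs Hom 0 passed by edgeR or DESeq2, where 1 was lower at an unadjusted p under 0.05, with a median of 0.148. *Asns*, the gene of asparagine synthetase, was at most 1.51 CPM in Ctrl, between 22.1 and 50.1 CPM in Het, and 4.63, 23.2 and 18.8 CPM in Hom mice. Its log2 fold changes were 5.46 (adjusted p = 6.02e-06, 6 of 6 mice) and 4.28 (adjusted p = 1.67e-04, 3 of 3 mice), and those of *Psat1*, a gene of serine synthesis, were 3.64 (adjusted p = 6.05e-05) and 3.95 (adjusted p = 1.21e-04). Against Ctrl only *Asns* still passed with the strain label as a term, in both comparisons. With this term *Psat1* went from 3.64 to 4.11 in Het vs Ctrl and from 3.95 to 4.43 in Hom vs Ctrl. In the same order, *Nupr1* went from 1.63 to 1.33 and from 2.6 to 2.31, and *Trib3* from 2.26 to 1.45 and from 2.21 to 1.4. The part of ATF4 in the rise of *Sesn2* was not tested.

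**Figure D4:**
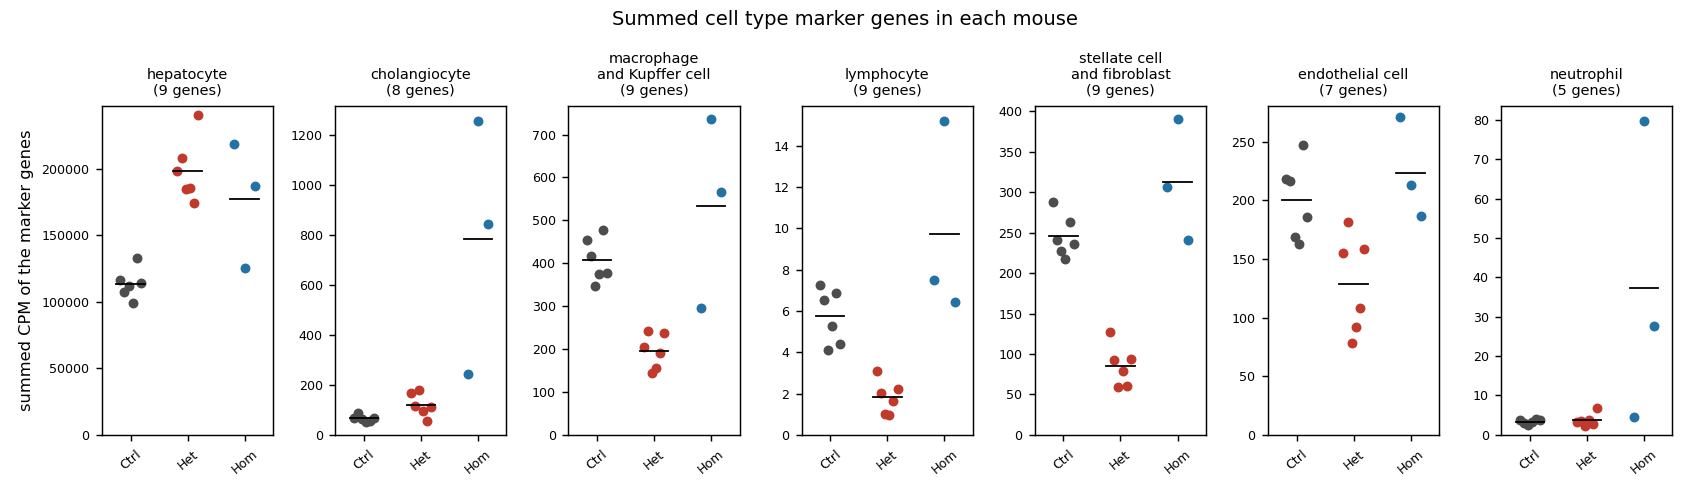
Summed level in CPM of the markers of 7 cell types in every mouse, for Ctrl, Het and Hom mice. Each point is a mouse and the horizontal bar is the mean, and the stellate cell and lymphocyte markers are low in all 6 Het mice.

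Markers of cell types other than hepatocytes were also summed in each mouse. The 9 stellate cell and fibroblast markers, with *Dcn* the most abundant, summed to between 217 and 288 CPM in Ctrl, between 59.5 and 127 CPM in Het, and 307, 390 and 241 CPM in Hom mice. The 9 macrophage and Kupffer cell markers (*Clec4f* the most abundant) summed to between 346 and 478, between 144 and 243, and 295, 737 and 566 CPM. The 7 endothelial markers (*Stab2*) summed to between 163 and 247, between 78.7 and 182, and 271, 213 and 187 CPM. Het mice lay below all Ctrl and Hom mice for the stellate cell and macrophage lists, and they overlapped Ctrl for the endothelial list.

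The 9 lymphocyte markers (*Cd79b*) summed to between 4.10 and 7.26 CPM in Ctrl, between 0.967 and 3.07 CPM in Het, and 7.47, 15.2 and 6.43 CPM in Hom mice. None of these 9 averaged 1 CPM or more over all mice, so their fold changes rest on few reads. The 8 cholangiocyte markers (*Spp1*) summed to between 49.9 and 89.2, between 56.2 and 180.0, and 245, 1257 and 846 CPM. The 5 neutrophil markers (*S100a9*) summed to between 2.40 and 4.14, between 2.18 and 6.89, and 4.60, 79.7 and 27.6 CPM. BG38 was the highest of all mice for each of these 3 lists, and none of the 7 lists had a marker at or under 3 counts in every mouse.

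For Het vs Ctrl the markers that passed lower were 8 of 9 for stellate cells, most of all *Col3a1* (log2 fold change -4.32), *Col1a1* (-4.30) and *Col1a2* (-2.94), and 6 of 9 for macrophages, most of all *Adgre1* (-1.92), *Timd4* (-1.85) and *Csf1r* (-1.29). They were 4 of 9 for lymphocytes (*Cd3d*, *Cd4*, *Cd79a*, *Cd79b*) and 2 of 7 for endothelial cells (*Cdh5*, *Clec4g*). Among the cholangiocyte markers *Sox9* and *Tspan8* passed higher and *Krt19* lower, and for hepatocytes 4 of 9 passed higher (*Apoa1*, *Tat*, *Alb*, *Hnf4a*) and 1 lower (*Ttr*). For neutrophils 0 of 5 passed by edgeR, where 2 had an unadjusted p under 0.05 and 1 passed by DESeq2.

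Between Hom and Ctrl mice 6 of 8 cholangiocyte markers passed higher, most of all *Tspan8* (5.44), *Spp1* (3.91) and *Sox9* (3.70), and 4 of 5 neutrophil markers (*S100a9*, *S100a8*, *Retnlg*, *Csf3r*) did so. Of the macrophage, lymphocyte, stellate and endothelial markers 1 each passed higher (*Itgam*, *Cd8a*, *Reln*, *Lyve1*), and of the hepatocyte markers 1 passed higher (*Apoa1*) and 1 lower (*Tat*).

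Between Het and Hom mice the markers that passed lower were 8 of 9 for stellate cells, with *Col1a1* (-5.38), *Col3a1* (-4.66) and *Col1a2* (-3.51) first, 7 of 9 for macrophages, with *Itgam* (-2.62), *Adgre1* (-2.11) and *Lyz2* (-1.81) first, and 5 of 9 for lymphocytes (*Cd8a*, *Cd79a*, *Cd79b*, *Cd4*, *Nkg7*). They were 2 of 7 for endothelial cells (*Lyve1*, *Cdh5*), 6 of 8 for cholangiocytes, with *Cftr* (-4.24), *Tspan8* (-3.31) and *Spp1* (-3.30) first, and 4 of 5 for neutrophils (*Retnlg*, *S100a8*, *S100a9*, *Csf3r*), and 2 of 9 hepatocyte markers passed higher (*Tat*, *Hnf4a*). With the strain label as a term, the stellate cell markers that passed in Het vs Ctrl still did so, except *Reln*. Of the macrophage markers only *Clec4f* and *Timd4* did. The lymphocyte and endothelial markers no longer passed there, with *Cd79b* going from -1.83 to -2.26 and *Cdh5* from -1.39 to -1.06. *Alb*, *Tat*, *Hnf4a*, *Ttr*, *Krt19* and *Tspan8* no longer passed either. In Hom vs Ctrl the neutrophil markers no longer passed, with *S100a9* going from 4.82 to 4.26. The same held for *Tspan8* (5.44 to 4.75), *Spp1* (3.91 to 3.81), *Cd8a* (2.35 to 1.5), *Epcam*, *Cftr*, *Itgam*, *Reln*, *Lyve1* and *Apoa1*. The part of these cells in the levels of *Trp53*, of its targets and of the genes repressed through p21 was not tested.

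Among 9568 genes that averaged 5 CPM or more, those whose log2 CPM over the 15 mice ran closest to *Trp53* were *Spsb3*, *B4galnt1* and *Plpp2*. Their mean absolute difference from it, after centring each gene on its mean, was 0.128, 0.134 and 0.156, where the spread of *Trp53* itself was 0.598. The mean of *Spsb3* was 11.3 CPM in Ctrl, 27.4 in Het and 20.6 in Hom mice. Closest to *Cdkn1a* were *Tnfrsf12a*, *Wnk4* and *Wtip*, at 0.507, 0.650 and 0.661, where the spread of *Cdkn1a* was 1.70. The mean of *Tnfrsf12a* was 5.00 CPM in Ctrl, 65.1 in Het and 37.5 in Hom mice. No target of p53 in the 6 lists was among these 6 genes. At most 49 of the 60 targets were frequent enough to be among the 9568 genes. The absence was therefore likely beforehand and says nothing about how the targets ran.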

How the data were processed

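RNA of 15 mouse livers was read as gene counts. Per the labels, the authors extracted RNA with Trizol, made stranded mRNA libraries, aligned the reads to mm10 with HISAT2 and obtained gene counts from featureCounts 2.0.8. What was deposited is a table of unscaled counts for 27179 genes, with a column for each of the 15 mice. The study lists 23 samples, 8 mice being named by 2 samples, and libraries of a mouse were not told apart. The authors' comparison columns, which hold fold changes and p-values, were not used, nor were 5 count columns of another table headed by bare numbers.

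Counts were fitted in R 4.3.3 with edgeR 4.0.16 (TMM, robust quasi-likelihood in the form of its earlier versions, all genes, 3 groups in 1 fit) and limma 3.58.1, and DESeq2 1.42.0 was an alternative. Standard errors are the absolute log2 fold change over the square root of F, and 95% intervals were computed from them with the degrees of freedom of the F-test. log2 CPM used a prior count of 2. Positions and exon lengths came from GENCODE M21 on GRCm38. Groups at or under 3 counts in every mouse were taken as at the floor, which covers counting error only. The code was tested on simulated data.

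The alternatives were RLE size factors, DESeq2, filterByExpr, the quasi-likelihood form of edgeR 4, no robust estimation, other thresholds, only the groups compared, the strain label or the clock score as a covariate, and leaving out each mouse. The lists were 6 of p53 targets, and those of p53 regulators, genes repressed through p21, ATF4 targets, 2 sets of clock genes and markers of 7 cell types. Named were the 10 genes, overlapping and engineered genes, *Trp63*, *Trp73*, *Mdm4* and *Cdkn2a*, the 3 genes most like *Trp53* and *Cdkn1a*, and of each list up to 3 called genes per direction and comparison with at least 1 CPM in a group. Other genes that make up a count of 5 or fewer were named after their values were seen. The genes and lists were chosen with earlier results of these data known. Reads, proteins and histology were not analysed here.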

Additional observations from a re-analysis of the deposited data

Results flagged for a closer look

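In each group of 6 mice the highest and the lowest value were compared with the nearest of the others by Dixon's test, for 47 quantities and 94 groups. The test picked 7 values, none of them among the 10 genes. Chance alone picks about 1 in 20 groups.

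*Trp63* in the Ctrl mouse malpa459 was 0.124 CPM, where the other Ctrl mice had no read, and in the Het mouse BG55 it was 1.89 CPM. *Lpin1* was 1221 CPM in BG55, far above the other Het mice. *Trib3* was 14.8 CPM in the Ctrl mouse BG3 and 83.3 CPM in the Het mouse BG30. The sum of the neutrophil markers was 6.89 CPM in the Het mouse BG88. The clock score was 2.01 in the Ctrl mouse malpa387, where those of the other Ctrl mice were below 0. BG55 was also the highest Het mouse for *Cdkn1a* and *Trp53*. The cause of these values was not tested.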

How the results depend on the processing

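No paired analysis was possible because the columns carry no replicate number. Of the values for single genes, 746 kept their direction and their side of the threshold under an alternative, 12 lost a call, 8 gained one and 14 changed sign. Most of these values belong to genes that were not called in the main fit. Called there were 3 of the 10 genes in Het vs Ctrl, 1 in Hom vs Ctrl and 0 in Het vs Hom. The lost calls included those of *Cdkn1a* in Hom vs Ctrl given above.

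With a threshold of 2 on the absolute log2 fold change, Het vs Ctrl had 1 of the 10 genes and 4 of the 60 targets called, Hom vs Ctrl had 7 targets and Het vs Hom had 4. At any fold change Het vs Ctrl had 5 of the genes and 20 targets, Hom vs Ctrl had 2 of the genes, and Het vs Hom had 13 targets. The thresholds themselves make these differences. With the strain label as a covariate Het vs Ctrl had 7 targets, and Hom vs Ctrl had 0 of the genes and 8 targets. With the clock score Hom vs Ctrl had 0 of the genes and 6 targets, and Het vs Hom had 5 targets. By DESeq2 the genes called were 3, 1 and 0 and the targets 13, 16 and 8.

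Signs changed for genes that were not called. In Hom vs Ctrl *Zmat3* was -0.0349 with filterByExpr, -0.00524 with only the groups compared, -0.0694 with the strain label and -0.0031 with the clock score. With the strain label *Phlda3* was -0.809 in Het vs Ctrl and -0.0144 in Hom vs Ctrl, where *Bax* was -0.353. With the clock score *Trp53inp1* was -0.284 in Hom vs Ctrl. The cause was not tested.

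Leaving out each mouse in turn, Hom vs Ctrl had from 0 to 2 of the genes and from 4 to 14 targets, and Het vs Hom had from 3 to 11 targets. The log2 fold change of *Bbc3* in Het vs Ctrl ranged from -0.28 to 0.0626, and in Hom vs Ctrl those of *Zmat3* from -0.174 to 0.182 and of *Trp53inp1* from -0.142 to 0.377. The cause was not tested.

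The other count table was not run, because 5 of its columns are headed by bare numbers and its other 10 columns hold the same counts. Hom has only 3 mice, and no group has intact *Trp53*. Gene counts cannot tell recombined from intact *Trp53* transcripts, and protein levels were not analysed here. Sizes are not given for *Trp63* and *Trp53cor1*. Those of several other genes rest on few reads in a group, among them *Cdkn2a*, *Cdc20*, *Aurkb*, *Top2a*, *Tnfrsf10b*, *Chek1*, *Ak1*, *Cftr* and the lymphocyte markers. *Cftr* had 0 to 5 reads per Het mouse.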
